A study of Mus musculus with 6 samples.

Results

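The transcripts described here are those of 4 S100 proteins (S100a4, S100a6, S100a10 and S100a11) and 6 annexins (Anxa1 to Anxa6), taken by gene name from a table of 53774 named lines, and all 10 were found once. They were measured by RNA sequencing in macrophages gated on CD45 and F4/80 out of injured muscle of mice. The muscle had been injected with BaCl2, a salt that destroys its fibres and so sets off their regrowth, and was taken 3 days later. Every mouse carried Cx3cr1-CreER, a tamoxifen-inducible recombinase driven by the Cx3cr1 promoter, and Manf fl/fl, the floxed gene of a secreted protein of the endoplasmic reticulum. The treated group received tamoxifen to delete Manf, and the control group of that genotype received oil, with 3 libraries in each. No library of tamoxifen-treated mice without the floxed gene was analysed here, so an effect of the drug and an effect of the deletion cannot be told apart. The labels do not say which mouse or pool a library came from or how old the mice were, and the spread on which p-values rest is that between libraries, which may be technical.

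S100 proteins are small proteins with EF-hand calcium-binding loops that work as dimers, and annexins are proteins that attach to acidic phospholipids of membranes when calcium rises. The families meet in fixed pairs: a dimer of S100a10 joins Anxa2 at the plasma membrane, where the complex binds plasminogen, and S100a11 binds Anxa1. S100a10 is the exception of its family, as it holds its active shape without calcium. In macrophages these proteins are known for membrane repair, cell movement and the handling of dying cells, and Anxa1 that leaves the cell acts through formyl peptide receptors and is known for ending inflammation.

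The 250 bases before the start of 4 of these genes are shown because S100a6, S100a11, Anxa1 and Anxa2 are 4 of the 5 members with the largest differences between the groups, and the sequences show what these starts do and do not share. They come from RefSeq (GRCm38.p6), run 5′ to 3′ along the strand of the gene and end at the base before the RefSeq start, which can differ from the start in the other annotation used below. The table held 7 of the 10 members, and S100a10, Anxa3 and Anxa6 were not among them. Capitals mark TGANTCA (the site of AP-1 factors), TATAAA (the TATA box) and CACGTG (an E-box), each searched on both strands. The 3 motifs were chosen after the sequences were seen, and their matches do not overlap.
S100a6 (chr3:90612644-90612893, plus strand): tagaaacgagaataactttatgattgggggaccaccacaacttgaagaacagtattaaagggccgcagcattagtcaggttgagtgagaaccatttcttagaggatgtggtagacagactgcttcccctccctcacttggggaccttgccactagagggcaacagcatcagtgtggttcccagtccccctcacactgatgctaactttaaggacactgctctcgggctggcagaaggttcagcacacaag
S100a11 (chr3:93520246-93520495, plus strand): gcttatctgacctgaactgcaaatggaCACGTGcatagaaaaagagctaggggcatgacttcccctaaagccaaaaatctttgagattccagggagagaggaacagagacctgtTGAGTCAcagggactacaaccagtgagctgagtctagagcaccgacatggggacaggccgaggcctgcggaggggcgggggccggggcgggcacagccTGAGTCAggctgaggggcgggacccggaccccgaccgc
Anxa1 (chr19:20390672-20390921, minus strand): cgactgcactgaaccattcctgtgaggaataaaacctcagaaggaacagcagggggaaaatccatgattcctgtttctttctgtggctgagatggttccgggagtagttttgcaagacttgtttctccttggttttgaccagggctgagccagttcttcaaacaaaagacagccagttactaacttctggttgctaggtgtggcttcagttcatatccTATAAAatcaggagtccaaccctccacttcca
Anxa2 (chr9:69453433-69453682, plus strand): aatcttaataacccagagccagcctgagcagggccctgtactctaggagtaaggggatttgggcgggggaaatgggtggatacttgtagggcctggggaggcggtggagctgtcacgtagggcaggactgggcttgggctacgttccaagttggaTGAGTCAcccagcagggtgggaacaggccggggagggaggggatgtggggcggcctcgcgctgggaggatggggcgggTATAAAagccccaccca
TGANTCA occurred at 2 places before S100a11, beginning 136 and 38 bases before the start, and once before Anxa2, 95 bases before it, where 6.75% of 32851 windows of that length held it. TATAAA began 32 bases before the start of Anxa1 and 17 before that of Anxa2, and also 31 before that of S100a4, where 12.4% of windows held it. CACGTG stood before S100a11 alone among the 7 members matched (6.02% of windows), and none of the 3 motifs stood in the window of S100a6. The starts also differed in base composition: G and C made up 62.4% of the window of Anxa2 and 60.0% of that of S100a11, but 46.0% of that of Anxa1, with a median of 52.4% over all windows. These matches describe letters only.

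Library depth, recovered from the values, ran from 18120333 to 25544666 reads. Manf overlapped between the groups: oil 1, 2 and 3 held 29.5, 33.1 and 31.4 FPKM (fragments scaled to exon length and library size), and the libraries labelled tamoxifen 1, 2 and 3 held 18.1, 42.5 and 38.0 FPKM. Its log2 fold change of -0.02 carried an SE of 0.29 (3 libraries a group, adjusted p = 0.976 by limma-trend). An exact permutation of the labels gave a two-sided p of 1, and 3 against 3 cannot go below 0.1. Tamoxifen 1 was the only tamoxifen library with Manf below oil, and without it Manf was called higher (log2 fold change 0.35, limma-trend adjusted p = 0.0214), in the same fit that gives the member calls below. The level of a whole gene also counts exons outside a deleted part, and whether this bears on these Manf levels was not tested. The libraries are called by their labels throughout. In a principal component analysis whose leading axis held 67.7% of the variance, the library labelled tamoxifen 1 scored -6.80, between oil (-22.5 to -13.5) and tamoxifen 2 and 3 (34.3 and 22.1), and the members' fold changes are given with and without it. The sort genes Adgre1 (F4/80) and Ptprc (CD45) were at 304 to 384 and 34.4 to 54.5 FPKM over the 6 libraries. In bulk RNA of sorted cells, fewer cells of a type and less RNA per cell cannot be told apart.

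S100a6, S100a10, S100a11, Anxa1 and Anxa2 were higher in all 3 libraries labelled tamoxifen than in any oil library, by 1.60 to 2.06 times on the group means, while Anxa3, Anxa4, Anxa6 and S100a4 overlapped between the groups. Anxa5 also lay above oil in every library, but by 1.13 times. By limma-trend over 10920 genes, 0 of the 10 members passed an adjusted p of 0.05 in either direction, as did 0% of all genes, and 5 members were higher at an unadjusted p under 0.05, where 13.2% of all genes were. Limma-voom on the recovered reads also called 0 of the 9 members it could test. In that fit 4 members were higher at an unadjusted p under 0.05, where 13.2% of its 9926 genes were. The 6 members whose libraries lay apart compare with 16.2% of all genes in that direction, and 0 members lay apart downward, where 13.8% of genes did. The median member had a log2 fold change of 0.46 and the median gene 0.02. The members were chosen with earlier results of these data known, so the shares beside them are a description and not a test. Without tamoxifen 1, limma-trend called 5 members higher, where 17.4% of genes were called, and 1 lower, where 14.5% were. With libraries weighted by their estimated quality the counts were 6 higher, where 24.8% of genes were called, and 1 lower, where 18.7% were.

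**Figure D1:**
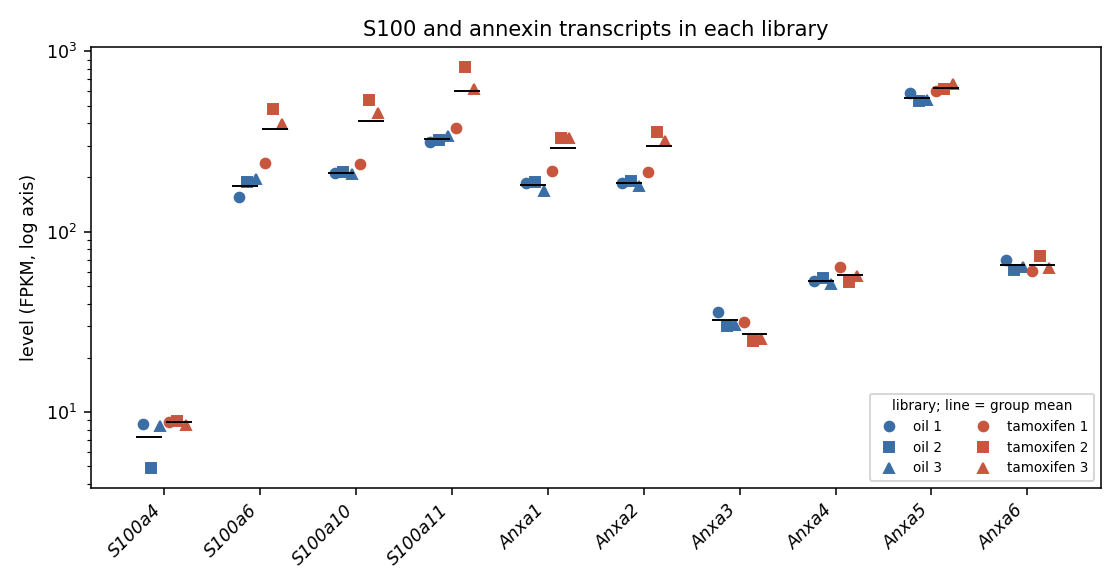
Level of each member in each library (FPKM, log axis); blue points are oil and red points are tamoxifen, with a symbol for each replicate number and a line at each group mean. S100a6, S100a10, S100a11, Anxa1, Anxa2 and Anxa5 show every red point above every blue point, and S100a4 lies far below the rest at 4.93 to 8.98 FPKM.

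FPKM is divided by length, so the members can be ordered by level within the oil libraries. The lengths that gave whole reads were those of all annotated exons of a gene, and the order depends on that annotation. Anxa5 stood first at 552 ± 28.4 FPKM (SD, n = 3), followed by S100a11 at 325 ± 11.4 and S100a10 at 212 ± 3.78 FPKM. Anxa2 (186 ± 6.42 FPKM), Anxa1 (181 ± 11.2 FPKM) and S100a6 (180 ± 20.8 FPKM) came next, and their ranges over the oil libraries overlapped. Compared within each library, Anxa2 was above Anxa1 in all 3 oil libraries, and Anxa1 was above S100a6 in 2 of them. Anxa6 (65.1 ± 4.33 FPKM), Anxa4 (53.3 ± 2.09 FPKM), Anxa3 (32.2 ± 3.23 FPKM) and S100a4 (7.30 ± 2.06 FPKM) followed, each apart from its neighbours in the order. The order was not the same throughout: in tamoxifen 2, S100a11 at 815 FPKM exceeded Anxa5 at 620 FPKM. Together the 4 S100 members held 0.212% to 0.236% of the summed FPKM of an oil library and 0.267%, 0.563% and 0.464% in tamoxifen 1, 2 and 3. The 6 annexins held 0.325% to 0.341% in oil and 0.368%, 0.447% and 0.457% with tamoxifen.

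Among the S100 genes, S100a6 (calcyclin; chromosome 3, 90612882 to 90624181, plus strand, GRCm38) had the highest fold change of the members. It read 157, 189 and 195 FPKM in oil 1, 2 and 3, against 242, 480 and 393 FPKM in tamoxifen 1, 2 and 3. All tamoxifen libraries lay above oil, tamoxifen 1 by the least. The log2 fold change was 0.99 (SE 0.25, limma-trend adjusted p = 0.148), and 1.27 without tamoxifen 1 (limma-trend adjusted p = 0.00277).

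S100a10 (chromosome 3, 93555080 to 93564643, plus strand), the partner of Anxa2, read 212, 215 and 208 FPKM in the oil libraries, against 236, 537 and 453 FPKM in the tamoxifen libraries. The oil libraries lay within a few FPKM of each other, and tamoxifen 1 was close above them. Its log2 fold change came to 0.86 (SE 0.28, limma-trend adjusted p = 0.157), and 1.22 without tamoxifen 1 (limma-trend adjusted p = 0.00245). S100a11 (chromosome 3, 93520488 to 93526287, plus strand), the partner of Anxa1, read 315, 322 and 337 FPKM in the oil libraries, against 377, 815 and 619 FPKM in the tamoxifen libraries. The groups again did not overlap, and tamoxifen 2 was the highest library. Its log2 fold change was 0.82 (SE 0.26, limma-trend adjusted p = 0.156), and 1.13 without tamoxifen 1 (limma-trend adjusted p = 0.00297). Its pseudogene S100a11-ps was listed at 0 in all 6 libraries.

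S100a4 (chromosome 3, 90603771 to 90606045, plus strand), known for binding the non-muscle myosin Myh9 in moving cells, lies next to S100a5, which separates it from S100a6. It read 8.58, 4.93 and 8.38 FPKM in the oil libraries, against 8.86, 8.98 and 8.53 FPKM in the tamoxifen libraries. The tamoxifen libraries overlapped oil, and oil 2 was lowest. Oil 2 held 56 reads, whose exact 95% Poisson interval is 3.72 to 6.40 FPKM, while the other 5 libraries held 93 to 125 reads with intervals between 6.93 and 11 FPKM; these intervals cover counting error only. The log2 fold change was 0.27 (95% interval -0.17 to 0.71, limma-trend adjusted p = 0.372) and also 0.27 without tamoxifen 1, with the lowest value, 0.05, when oil 2 was left out. The level of S100a4 is uncertain: 302 of its 584 exon bases (51.7%) also belong to Gm42674, an annotated gene of the same strand, which was listed at 0 in all libraries, and the sources used here do not give how shared reads were counted. The other members share at most 3.1% of their exon bases with another gene.

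**Figure D2:**
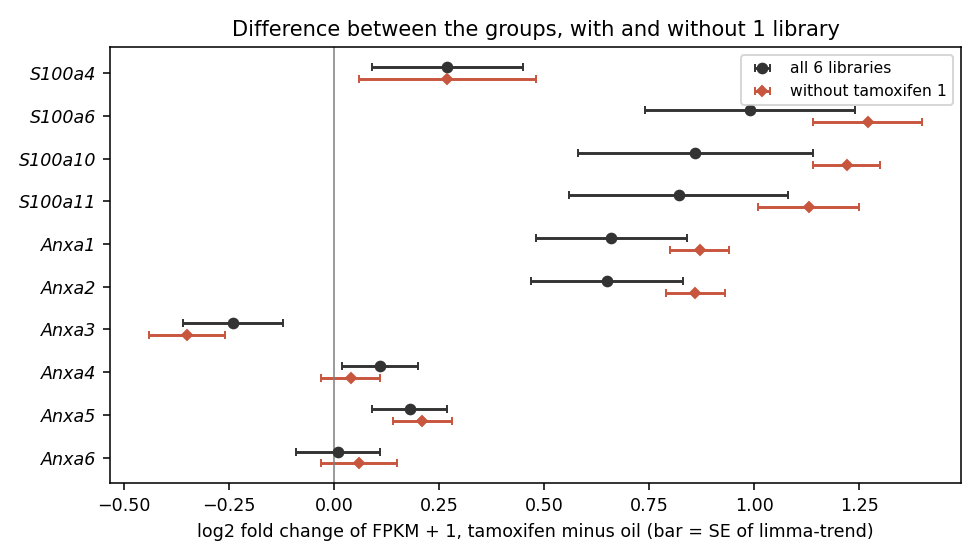
Log2 fold change of FPKM + 1, tamoxifen minus oil, for each member, from all 6 libraries (black) and without the library labelled tamoxifen 1 (red); bars are standard errors from limma-trend. S100a6 moves from 0.99 to 1.27 and S100a10 from 0.86 to 1.22 when that library is left out, while Anxa4 and Anxa6 stay near 0.

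Among the annexins, Anxa1 (chromosome 19, 20373428 to 20390944, minus strand) read 186, 189 and 168 FPKM in the oil libraries, against 216, 331 and 331 FPKM in the tamoxifen libraries. All tamoxifen libraries lay above oil, and tamoxifen 2 and 3 had like levels. Its log2 fold change came to 0.66 (SE 0.18, limma-trend adjusted p = 0.149), and 0.87 without tamoxifen 1 (limma-trend adjusted p = 0.00245). Anxa2 (chromosome 9, 69453620 to 69491795, plus strand), which joins S100a10 and is known for organising actin at membranes, read 187, 192 and 179 FPKM in the oil libraries, against 215, 359 and 319 FPKM in the tamoxifen libraries. The groups did not overlap, and the libraries stood in the order tamoxifen 2, 3, 1, as for the 3 S100 genes above. The log2 fold change was 0.65 (SE 0.18, limma-trend adjusted p = 0.152), and 0.86 without tamoxifen 1 (limma-trend adjusted p = 0.00245).

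Anxa5 (chromosome 3, 36448923 to 36475894, minus strand), which binds phosphatidylserine exposed on dying cells, read 585, 533 and 538 FPKM in the oil libraries, against 601, 620 and 656 FPKM in the tamoxifen libraries. The groups did not overlap, but the gap between oil 1 and tamoxifen 1 was small. This gave a log2 fold change of 0.18 (95% interval -0.03 to 0.39, limma-trend adjusted p = 0.237) and 0.21 without tamoxifen 1 (limma-trend adjusted p = 0.0631). Anxa3 (chromosome 5, 96793339 to 96845966, plus strand) read 36.0, 30.2 and 30.5 FPKM in the oil libraries, against 31.7, 24.7 and 25.4 FPKM in the tamoxifen libraries. Tamoxifen 2 and 3 lay below all oil libraries and tamoxifen 1 among them. It was the only member with a fold change below 0 (log2 fold change -0.24, SE 0.12, limma-trend adjusted p = 0.249), and -0.35 without tamoxifen 1 (limma-trend adjusted p = 0.0321).

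Anxa4 (chromosome 6, 86736840 to 86793584, minus strand) read 53.6, 55.3 and 51.1 FPKM in the oil libraries, against 63.9, 52.7 and 56.8 FPKM in the tamoxifen libraries, so that tamoxifen 1 was the highest library. This gave a log2 fold change of 0.11 (95% interval -0.10 to 0.32, limma-trend adjusted p = 0.443) and 0.04 without tamoxifen 1. Anxa6 (chromosome 11, 54979108 to 55033445, minus strand), an annexin with a doubled core that is known from endosomes and lipid transport, read 69.9, 61.4 and 64.0 FPKM in the oil libraries, against 60.9, 73.5 and 62.8 FPKM in the tamoxifen libraries. Its log2 fold change of 0.01 had a 95% interval of -0.22 to 0.24 (limma-trend adjusted p = 0.952), it was 0.06 without tamoxifen 1, and its sign depended on the scaling and on the libraries used.

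**Figure D3:**
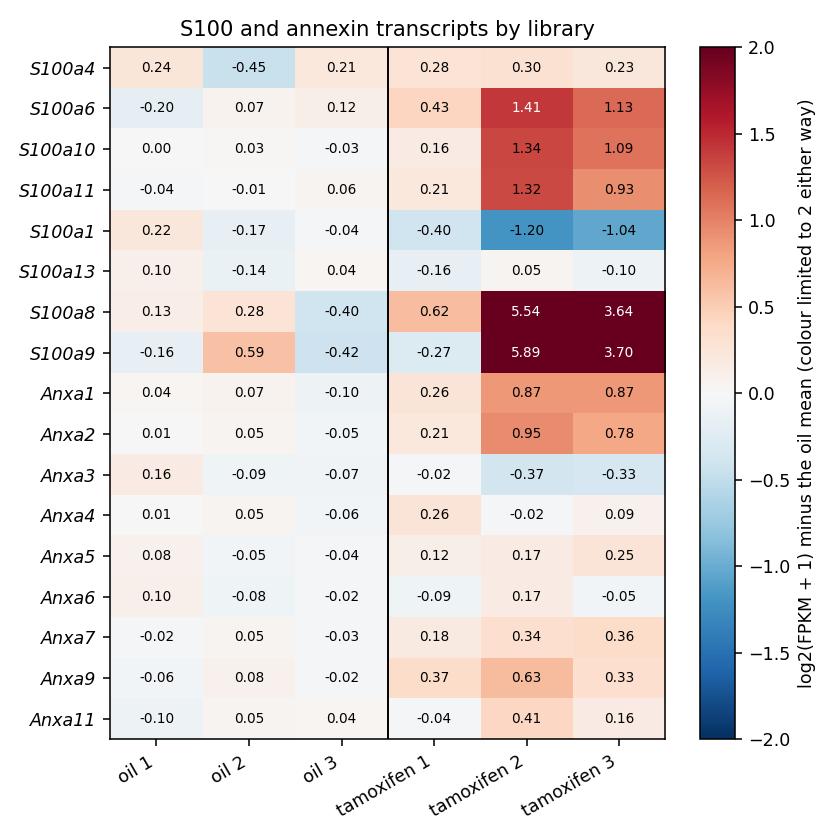
Log2(FPKM + 1) minus the mean of the oil libraries, for the members and for the other S100 and annexin genes that averaged 1 FPKM or more; columns are libraries, and colour is limited to 2 either way. S100a6 reads 0.43, 1.41 and 1.13 in tamoxifen 1, 2 and 3 and S100a10 reads 0.16, 1.34 and 1.09, while S100a1 reads -0.40, -1.20 and -1.04.

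The size of the difference in each library separated the members further. On the log2 scale S100a6 exceeded the oil mean by 0.43, 1.41 and 1.13 in tamoxifen 1, 2 and 3, S100a10 by 0.16, 1.34 and 1.09, and S100a11 by 0.21, 1.32 and 0.93. Anxa1 exceeded it by 0.26, 0.87 and 0.87 and Anxa2 by 0.21, 0.95 and 0.78, less than the S100 genes in tamoxifen 2 and 3. In 6 of the 10 members tamoxifen 1 was the lowest of the tamoxifen libraries and still above all oil libraries. These are the same 6 members that lay apart above oil. The share of all genes with that library order was not counted, so the order is not shown to be particular to the members.

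The levels of the protein partners were compared as ratios within each library, which do not depend on the scaling of a library. The size of a ratio does depend on the exon lengths by which FPKM is divided. The ratio of S100a10 to Anxa2 was 1.14, 1.12 and 1.16 in oil and 1.10, 1.49 and 1.42 in tamoxifen 1, 2 and 3. Tamoxifen 1 lay below oil and the other two above, so the groups overlapped. The ratio of S100a11 to Anxa1 was 1.70, 1.70 and 2.01 in oil and 1.75, 2.46 and 1.87 with tamoxifen, where tamoxifen 2 alone lay above oil. On the log2 scale the first ratio was 0.217 higher with tamoxifen and the second 0.157 higher, and both depended on single libraries. The first was 0.354 without tamoxifen 1 and 0.13 without tamoxifen 2, and the second was 0.257 without tamoxifen 1, 0.237 without oil 3 and 0.008 without tamoxifen 2. These are descriptions, and transcript ratios do not give protein ratios.

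**Figure D4:**
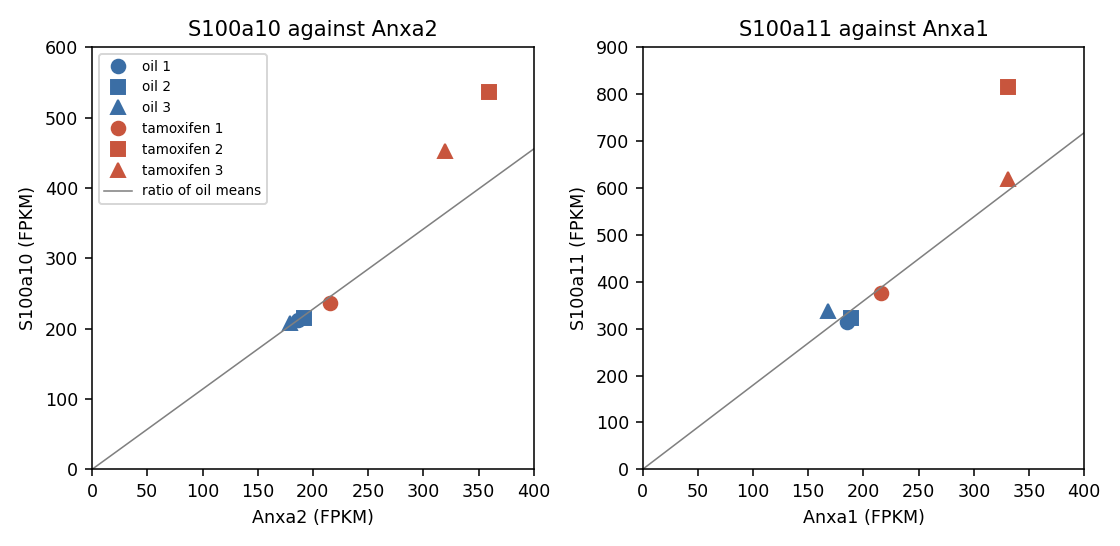
Level of S100a10 against Anxa2 (left) and of S100a11 against Anxa1 (right) in each library, in FPKM; the grey line is the ratio of the oil means. Tamoxifen 2 and 3 lie above the line for S100a10, with ratios of 1.49 and 1.42, and tamoxifen 1 lies just under it at 1.10.

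Most S100 genes stand side by side on mouse chromosome 3, which allowed the members to be read against their genomic neighbours. S100a5, which lies between S100a4 and S100a6, held 0 to 3 reads per library, and S100a3, on the other side of S100a4, held 0 to 2 reads. S100a6 therefore stood between genes with almost no reads, with S100a7a (0 to 5 reads) next on its far side. S100a2, which is not in the list of other S100 genes, was listed at 0 throughout. Of the 12 other S100 genes in the list, 4 averaged 1 FPKM or more, and 0 passed over all genes, with 1 higher and 1 lower at an unadjusted p under 0.05, where 13.2% and 11.7% of genes were. Their median log2 fold change, 1.52, lay between S100a8 and S100a9 on one side and S100a1 and S100a13 on the other.

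S100a1, known mainly from muscle, read 66.9, 50.9 and 55.7 FPKM in the oil libraries, against 43.4, 24.5 and 27.5 FPKM in the tamoxifen libraries. Its libraries lay apart in the direction opposite to S100a6 (log2 fold change -0.88, limma-trend adjusted p = 0.147). S100a13, which starts next to S100a1 on the opposite strand, averaged 53.0 ± 4.63 FPKM in oil, against 50.4 ± 3.92 FPKM with tamoxifen (SD, n = 3; log2 fold change -0.07). S100a8 and S100a9, the calgranulins of neutrophils and monocytes, were at 1.52 to 3.04 and 0.525 to 2.07 FPKM in oil. S100a8 was at 4.12, 154 and 40.4 FPKM and S100a9 at 0.696, 120 and 25.5 FPKM in tamoxifen 1, 2 and 3, with log2 fold changes of 3.26 and 3.11 (limma-trend adjusted p = 0.161 and 0.218). In tamoxifen 1, S100a8 lay above oil and S100a9 among the oil libraries. Without tamoxifen 1, 2 of these 4 genes were called higher and 1 lower, where 17.4% and 14.5% of all genes were.

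**Figure D5:**
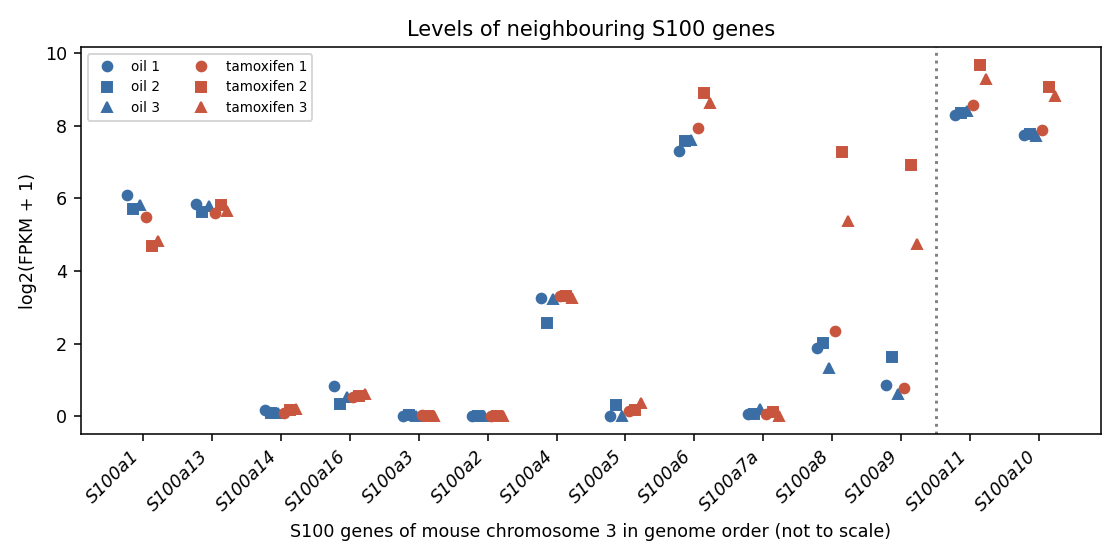
Log2(FPKM + 1) of the S100 genes of mouse chromosome 3 in genome order, not to scale, with blue points for oil and red for tamoxifen; the dotted line marks the gap before S100a11 and S100a10. S100a6, S100a11 and S100a10 are the highest and have every red point above the blue points, S100a1 has them below, and S100a3, S100a2 and S100a5 are near 0.

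Of the 6 other annexins, Anxa7, Anxa9 and Anxa11 were measured and 0 passed over all genes, with 2 higher at an unadjusted p under 0.05 (13.2% of all genes) and 2 called higher without tamoxifen 1 (17.4% of all genes). Anxa7, known for membrane fusion in secretion, averaged 19.5 ± 0.630 FPKM in oil, against 24.1 ± 1.68 FPKM with tamoxifen (SD, n = 3), with the groups apart (log2 fold change 0.29, limma-trend adjusted p = 0.148). Anxa9 was at 2.14 ± 0.169 and 3.29 ± 0.498 FPKM, also apart (log2 fold change 0.44, limma-trend adjusted p = 0.147). Anxa11, which binds S100a6, overlapped at 16.4 ± 0.978 and 18.8 ± 3.10 FPKM. Anxa13 was listed at 0, and Anxa8 and Anxa10 stayed under 0.23 FPKM in every library.

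Binding partners and receptors of these proteins were read from a list of 16 genes, of which 14 were measured. None passed by limma-trend over all genes, 4 were higher and 2 lower at an unadjusted p under 0.05 (13.2% and 11.7% of all genes), and the median log2 fold change was 0.12. Of the 14 measured, Fpr2 and Fpr1, formyl peptide receptors through which Anxa1 acts outside the cell, had the highest fold changes. Fpr2 read 2.79, 3.01 and 1.99 FPKM in the oil libraries, against 6.38, 17.8 and 11 FPKM in the tamoxifen libraries (log2 fold change 1.73, limma-trend adjusted p = 0.147), and Fpr1 read 0.407, 1.09 and 0.710 FPKM against 2.40, 14.9 and 8.69 FPKM (log2 fold change 2.24, limma-trend adjusted p = 0.147). Both lay above oil in every tamoxifen library, and the tamoxifen libraries stood in the same order as for S100a6. Fpr1 averaged 0.734 FPKM in oil, so it passed the filter of 1 FPKM only through its tamoxifen libraries. Its place among the 4 counted as higher is therefore no support for a difference. Fpr3, also on the list, was under the filter, at no more than 0.0871 FPKM in any library, and its groups overlapped. Pla2g4a, the cytosolic phospholipase that Anxa1 is known to inhibit, was at 4.40 ± 0.330 and 6.68 ± 1.19 FPKM (SD, n = 3; log2 fold change 0.50, limma-trend adjusted p = 0.148). Plgrkt, a plasminogen receptor, was lower, at 9.22 ± 0.238 and 7.28 ± 1.0 FPKM (log2 fold change -0.31, limma-trend adjusted p = 0.156). Without tamoxifen 1, 7 of the 14 were called higher and 2 lower, where 17.4% and 14.5% of all genes were.

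Of 18 genes of plasma membrane repair, the process in which annexins seal holes, 15 were measured and none passed by limma-trend over all genes. At an unadjusted p under 0.05, 2 were higher and 1 lower (13.2% and 11.7% of all genes), with a median log2 fold change of 0.10. Capn2, the large subunit of a calcium-activated protease, was at 40.5 ± 2.46 and 62.5 ± 14.2 FPKM (SD, n = 3; log2 fold change 0.59, limma-trend adjusted p = 0.152). Chmp4b and Pdcd6ip, parts of the ESCRT machinery that pinches off damaged membrane, were at 150 ± 8.57 and 177 ± 8.63 FPKM and at 44.7 ± 1.21 and 51.1 ± 3.92 FPKM. Smpd1, a sphingomyelinase, was lower, at 10.5 ± 0.327 and 8.88 ± 1.08 FPKM. Ehd1 was listed at 0 throughout and is uncertain. Without tamoxifen 1, 6 were called higher and 1 lower, where 17.4% and 14.5% of all genes were.

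Anxa1 is a known glucocorticoid-induced gene, and 9 other genes of that kind were read beside it, 8 of them measured. None passed by limma-trend over all genes, 1 was higher and 1 lower at an unadjusted p under 0.05 (13.2% and 11.7% of all genes), and the median log2 fold change was -0.10. Fkbp5 was at 7.32 ± 0.520 and 16.9 ± 7.32 FPKM (SD, n = 3) with the groups apart, and Sgk1 at 49.5 ± 6.73 and 37.0 ± 4.04 FPKM, apart in the other direction. Klf9 was at 3.50 ± 0.325 and 4.89 ± 1.48 FPKM and Cd163 at 7.45 ± 0.857 and 16 ± 12.1 FPKM, both overlapping. Without tamoxifen 1, 2 were called higher and 3 lower, where 17.4% and 14.5% of all genes were.

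Markers of other cells lay higher with tamoxifen in some lists and lower in others. The genes of handling, the dissociation stress list below, had fold changes below 0. All 8 markers of Ly6C-high monocytes lay above oil in every tamoxifen library, where 16.2% of all genes did. Their summed level ran from 368 to 478 FPKM in oil and was 877, 3107 and 1588 FPKM in tamoxifen 1, 2 and 3. Chil3 made up most of the sums with tamoxifen, at 489, 2456 and 1153 FPKM. The sums stood in the order of the tamoxifen libraries for S100a6, but Ly6c2 and Plac8 did not. Ly6c2 averaged 40.0 ± 16.3 FPKM in oil, against 120 ± 34.3 FPKM with tamoxifen (SD, n = 3). It read 152, 123 and 83.8 FPKM in tamoxifen 1, 2 and 3, and Plac8 read 78.6, 97.8 and 71.1 FPKM. The 11 neutrophil markers, S100a8 and S100a9 among them, summed to 50.4 to 53.8 FPKM in oil and 55.4, 368 and 112 FPKM with tamoxifen. Lcn2 was at 0.363, 33.6 and 8.59 FPKM there, and Ly6g was at 0 in every library but tamoxifen 2 (0.176 FPKM). S100a8, S100a9 and Lcn2 made up most of the higher sums. Mmp8 also lay above oil in every tamoxifen library, at 9.47, 11.2 and 8.81 FPKM in oil and 12.2, 30.3 and 13.2 FPKM with tamoxifen. Cxcr2 lay above oil in tamoxifen 2 and 3 (0.923 and 0.475 FPKM) but among the oil libraries in tamoxifen 1 (0.104 FPKM). Other markers of the list lay otherwise: Csf3r read 27.3, 28.7 and 28.2 FPKM in the oil libraries, against 30.3, 15.3 and 14.6 FPKM in the tamoxifen libraries. Camp lay below oil in every tamoxifen library, at no more than 0.271 FPKM anywhere, and on the log2 scale Mmp9 differed by -0.01 and Retnlg by 0.03. The part of these cells in the levels of the members was not tested.

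The 7 stromal markers, for cells that are known to be rich in S100a6 and Anxa2, summed to 23.5 to 26.5 FPKM in oil and to 15.9, 38.1 and 29.6 FPKM in tamoxifen 1, 2 and 3. They were thus above oil in tamoxifen 2 and 3, where S100a6, S100a10, S100a11, Anxa1 and Anxa2 were highest, and below oil in tamoxifen 1. Their part in the levels of the members was not tested. Their named members Dcn and Postn were at 0.872 ± 0.0573 and 1.70 ± 1.10 FPKM and at 2.03 ± 0.572 and 1.54 ± 0.538 FPKM (SD, n = 3). Skeletal muscle markers were lower, at 7.36 to 13.4 FPKM in oil and 2.88 to 5.11 FPKM with tamoxifen, with Myog at 2.51 ± 0.905 and 0.587 ± 0.444 FPKM and Mylpf at 1.82 ± 0.494 and 0.675 ± 0.238 FPKM. Dendritic cell markers were at 6.51 to 11.5 and 3.47 to 3.67 FPKM, with Cd209a at 4.50 ± 1.46 and 1.33 ± 0.724 FPKM and Ccr7 at 2.5 ± 1.18 and 1.29 ± 0.490 FPKM. Endothelial markers stayed at 5.35 to 7.05 and 6.19 to 6.84 FPKM (Kdr at 2.26 ± 0.774 and 3.01 ± 0.902, Pecam1 at 2.15 ± 0.00629 and 1.90 ± 0.27 FPKM) and B cell markers at 5.18 to 5.93 and 4.29 to 5.25 FPKM (Cd79a at 1.28 ± 0.0644 and 1.94 ± 0.492, Cd79b at 4.17 ± 0.432 and 2.94 ± 0.846 FPKM). T and NK cell markers and mast cell markers summed to at most 0.335 and 0.221 FPKM in any library, with Ncr1 and Mcpt4 at 0.

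The general macrophage genes summed to 11140 to 12860 FPKM in oil and 8982 to 10040 FPKM with tamoxifen, with Csf1r at 410 ± 31.7 and 286 ± 34.8 FPKM and Lyz2 at 9343 ± 824 and 7071 ± 314 FPKM (SD, n = 3). Lyz2 made up most of that sum, and the 8 genes did not all lie the same way. Fcgr1, an Fc receptor, read 117, 133 and 139 FPKM in the oil libraries, against 164, 158 and 149.7 FPKM in the tamoxifen libraries, and the fold change of Cd14, a co-receptor for lipopolysaccharide, was 0.07 on the log2 scale. Cx3cr1, the gene behind the Cre driver, read 51.7, 42.7 and 51.0 FPKM in the oil libraries, against 31.3, 9.83 and 24.6 FPKM in the tamoxifen libraries. All 6 genes of the dissociation stress list had a fold change below 0 (median -0.36), as did 5054 of all 10920 genes tested. At an unadjusted p under 0.05, 3 were lower (11.7% of all genes). The groups lay apart downward in 2, Egr1 and Hspa1b (13.8% of all genes), and overlapped in Fos, Jun, Atf3 and Hspa1a. Egr1 was at 60.4 ± 3.61 and 47.5 ± 7.84 FPKM, Fos at 501 ± 53.5 and 395 ± 67.9 FPKM, Hspa1a at 114 ± 33.7 and 78.6 ± 10.8 FPKM and Hspa1b at 113 ± 34.0 and 78.4 ± 8.82 FPKM. Without tamoxifen 1, 4 of the 6 were called lower, where 14.5% of all genes were. The part of handling in the levels of the members was not tested.

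The genes most like the members were named by Pearson's r between a gene and the mean centred log2(FPKM + 1) profile of the 10 members over the 6 libraries. Within the members r to that profile was highest for Anxa2, at 0.988, and S100a11, S100a10, Anxa1 and S100a6 reached 0.983, 0.982, 0.975 and 0.969. It was 0.862 for Anxa5, 0.510 for S100a4, 0.440 for Anxa6, 0.057 for Anxa4 and -0.836 for Anxa3. Among 10886 other genes 31 had an r of at least 0.99 and 539 an r of at least 0.95, so the pattern is not particular to the members. Each member is itself part of the profile, which raises its own r. In S100a6, S100a10, S100a11, Anxa1 and Anxa2, and in the genes named next, tamoxifen 2 and 3 lay above the other libraries. The genes named next were picked by their r to this profile, so their likeness to it was fixed by that choice. The highest were Srpr, a subunit of the signal recognition particle receptor (r = 0.9985), Rap2c, a small GTPase (0.9957), Arpc1b, a subunit of the Arp2/3 actin complex (0.9953), Elac2, a tRNA-processing nuclease (0.9952), and Nucb2, a calcium-binding protein (0.9947). Their log2 fold changes, 0.21, 0.24, 0.34, 0.36 and 0.41, were below those of S100a6, S100a10, S100a11, Anxa1 and Anxa2. Arpc1b, the most abundant of them, averaged 176 ± 1.02 FPKM in oil, against 225 ± 25.4 FPKM with tamoxifen (SD, n = 3).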

How the data were processed

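The authors deposited a single table with an FPKM value for each gene in each of the 6 libraries, and its name and values give the unit. Per the submitters' processing notes the build was GRCm38.p6. Aligner, counter, strand setting and gene models: not given in the sources used here. Of 54183 lines, 382 without a gene name and 27 with a date as name were left out (0.253% to 0.289% of the summed FPKM). Itgam stood on 2 lines and was left out of the lists.

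FPKM times the exon length in GENCODE M21 (GRCm38) gave whole multiples of 1 step per library, and so the reads by which the authors divided: 18553400, 19464840 and 25544666 in oil and 22028208, 18120333 and 23478590 with tamoxifen. Between 95.0% and 95.3% of values up to 1000 reads were whole within 0.02 reads, and all members but Anxa1 were whole in every library. Coordinates come from that annotation. The members held 56 to 27961 reads per library.

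Tamoxifen was compared with oil by limma-trend on log2(FPKM + 1), with no further scaling or covariates, over 10920 genes averaging 1 FPKM or more. Fold changes on that scale understate the change of low genes. Two-sided p-values were adjusted over all genes by the Benjamini-Hochberg method and read at 0.05. The fit was run on simulated data with known changes and independent noise in each gene. That simulation had no outlying library, so it does not cover the dependence on tamoxifen 1. Lists are described by counts and medians, with no list test. Named genes are the members, Manf, the sort and driver genes, 4 genes per related list and 2 per marker list by smallest p, the neighbouring S100 genes and the 5 genes of highest r; others were chosen after their values were seen, and 1 marker gene that the rule names is not reported here. The members and lists were chosen with earlier results of these data known. Alternatives were other pseudocounts, filters and scalings, limma without trend or with a robust prior, library weights, limma-voom on recovered reads, a block for the replicate number, and fits without each library. R 4.3.3, limma 3.58.1 and Python 3.11 with SciPy 1.17.1 were used.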

Additional observations from a re-analysis of the deposited data

How the results depend on the processing

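With all 6 libraries at equal weight, no member passed under any pseudocount, filter, scaling or prior tried, with limma-voom, or with the replicate block. Over all genes the calls were 1 lower without a filter, 1 higher and 4 lower with a filter at 5 FPKM, and 11 higher and 22 lower with the replicate number as a block. The labels do not say whether the numbers pair the samples. Deviations of same-numbered libraries correlated at 0.261, 0.088 and 0.004, and oil 3 correlated best with tamoxifen 2 (0.174). Deviations from means of so few libraries cannot settle whether the samples are paired. Library quality weights called 2704 genes higher and 2037 lower, among them 6 members higher and 1 lower (S100a6 at a log2 fold change of 1.11, Anxa5 at 0.248 and Anxa3 at -0.297), and in the related lists 2 other S100 genes, 2 other annexins, 7 partners, 6 repair genes and 2 glucocorticoid genes higher and 1, 0, 2, 1 and 3 lower, with 6 dissociation genes lower; Manf was then at 0.226.

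Leaving out 1 library gave 0 to 1901 genes higher and 0 to 1583 lower, 0 to 5 members higher and 0 to 1 lower, and, in the order above, 0 to 2, 0 to 2, 0 to 7, 0 to 6 and 0 to 2 list genes higher and 0 to 1, 0, 0 to 2, 0 to 1 and 0 to 3 lower, with 0 to 4 dissociation genes lower. Every count above 0 came from leaving out tamoxifen 1. The log2 fold change of Manf then ran from -0.241 to 0.353, and without oil 2 it was 0.0223; the value of 0.353, without tamoxifen 1, passed the threshold (limma-trend adjusted p = 0.0214). The cause was not tested. The number of members higher at an unadjusted p under 0.05 was 5 in the reported fit, 3 without tamoxifen 3 and 4 to 6 under the other alternatives. The share of all genes varied more: it was 13.2% in the reported fit and 6.14% without tamoxifen 3. Under the other alternatives it ran from 5.71% without oil 1 to 30.1% with library weights. Anxa6 changed sign with the same sum per library (-0.0017), quantile normalization (-0.0393) and library weights (-0.00463), and ran from -0.0711 to 0.0621 with 1 library left out, below 0 without oil 2 (-0.0295), oil 3 (-0.000368) or tamoxifen 2. S100a4 rests on few reads. A ratio with a pseudocount, chosen after seeing the data, gave 0.217 and 0.158 for the partner pairs.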
